A study of Rattus norvegicus with 8 samples.

Results

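Fatty acid synthesis, elongation and desaturation were described in rat liver through 10 probe sets of 6 genes, out of 8740 non-control probe sets on the array. The members were all probe sets that the platform's annotation matched to 1 symbol among Fasn, Acaca, Acly, Scd, Scd1, Elovl5, Fads1, Fads2, Thrsp and Srebf1. The symbols Scd1, Fads1, Fads2 and Thrsp had no probe set matched to them here and were not analysed. Acly had 3 probe sets, Fasn and Scd had 2 each, and Acaca, Elovl5 and Srebf1 had 1 each. All 10 were bright enough to be tested.

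The RNA was from frozen liver of 8 rats, all male Fischer 344 fed AIN 76A chow, and each rat had 1 Affymetrix rat expression array. The 4 vehicle rats were gavaged with 0.2 ml of saturated sucrose. The 4 D3T rats were gavaged with 3H-1,2-dithiole-3-thione (D3T) at 0.3 mmol per kg body weight in the same vehicle, on days 1, 3 and 5. D3T, a sulfur-containing ring compound, is known as an activator of Nrf2, which switches on detoxification genes. The labels give the age of every rat as 6 without a unit, and they name no days for vehicle replicate 2. They describe no allele, and both groups received sucrose.

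In hepatocytes, citrate exported from mitochondria is cleaved to acetyl-CoA, which is carboxylated to malonyl-CoA and then built into palmitate by fatty acid synthase. Elongases of the endoplasmic reticulum lengthen fatty acids and desaturases place double bonds in them. In liver the pathway is induced by carbohydrate feeding and insulin, largely through SREBP-1c, a product of Srebf1, and the carbohydrate-responsive factor encoded by Mlxipl.

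After D3T the transcript of Elovl5, which elongates polyunsaturated fatty acids, fell 1.74-fold. No other member passed the test. Among the enzymes of the first steps, Acaca had an estimate above 0 and Acly had estimates on both sides of 0 over its 3 probe sets, none of which passed. Scd, the main desaturase of stearate, had estimates close to 0. In limma's fit over 5244 probe sets, 10.7% passed a Benjamini-Hochberg adjusted p of 0.05, with 4.2% higher and 6.48% lower after D3T. Of the 10 members 1 passed as lower and 0 as higher, which is close to that background. At an unadjusted p of 0.05, 3 of the 10 members were past the threshold against 29.3% of all tested probe sets. The 10 log2 fold changes comprised 6 above 0 and 4 below, with a median of 0.07 beside a median of 0.02 over all tested probe sets. They ranged from -1.06 to 0.78.

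**Figure D1:**
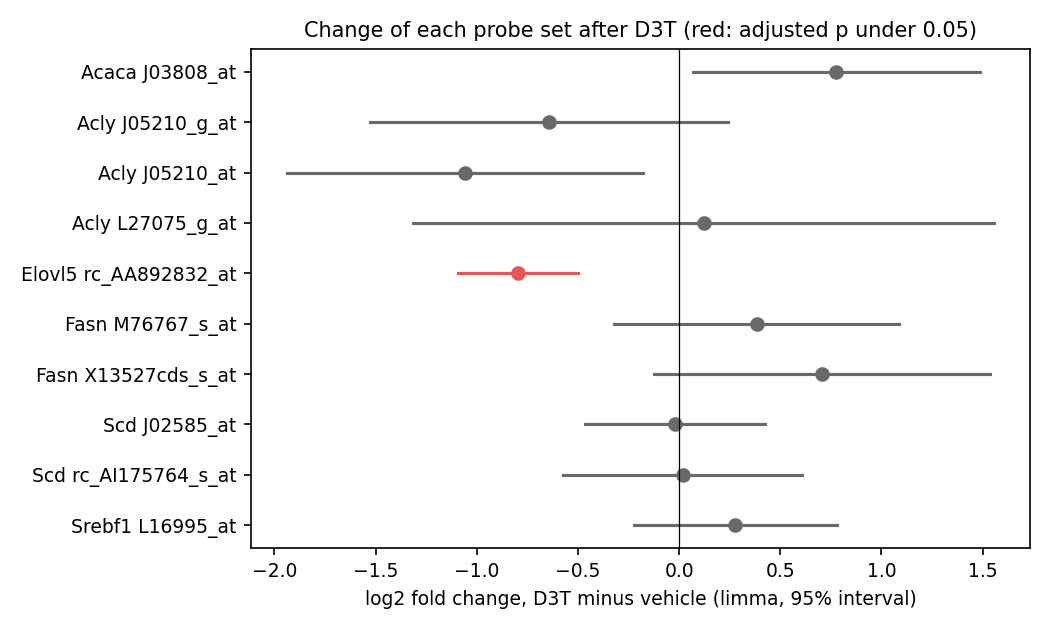
Points give the log2 fold change (D3T minus vehicle, 4 arrays each) of the 10 probe sets and lines the 95% interval of the limma fit. The interval of Elovl5 runs from -1.09 to -0.50, and Elovl5 alone is red, the colour for an adjusted p under 0.05.

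Elovl5, Acly and Scd are shown by the sequence around their transcription start, since Elovl5 was called, Acly had the lowest estimate among the other members and Scd lay closest to 0. RefSeq promoter entries of the GRCr8 build were matched for 4 of the 6 genes (Acly, Elovl5, Scd and Srebf1), each with 250 bases before and 50 bases after a start, read 5' to 3' on the gene's strand. The 3 windows were chr8:87670914-87671213 (plus strand) for Elovl5, chr10:85963582-85963881 (minus strand) for Acly and chr1:253231682-253231981 (minus strand) for Scd. Capitals mark matches on either strand to the E-box CACGTG, the CCAAT box CCAAT, the GC box GGGCGG, the sterol regulatory element core TCACNCCAC or the antioxidant response element core TGACNNNGC.
Elovl5: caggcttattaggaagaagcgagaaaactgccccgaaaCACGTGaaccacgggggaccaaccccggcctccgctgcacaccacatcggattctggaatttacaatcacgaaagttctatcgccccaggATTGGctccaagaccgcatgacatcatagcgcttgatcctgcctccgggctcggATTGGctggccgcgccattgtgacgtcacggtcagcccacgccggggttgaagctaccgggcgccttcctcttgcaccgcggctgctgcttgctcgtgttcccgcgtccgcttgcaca
Acly: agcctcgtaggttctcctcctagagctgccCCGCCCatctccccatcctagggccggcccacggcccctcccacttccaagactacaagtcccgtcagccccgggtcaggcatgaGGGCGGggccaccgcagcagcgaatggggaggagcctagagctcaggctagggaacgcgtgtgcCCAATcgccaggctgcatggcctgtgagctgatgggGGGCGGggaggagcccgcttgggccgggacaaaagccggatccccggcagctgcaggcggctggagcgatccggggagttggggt
Scd: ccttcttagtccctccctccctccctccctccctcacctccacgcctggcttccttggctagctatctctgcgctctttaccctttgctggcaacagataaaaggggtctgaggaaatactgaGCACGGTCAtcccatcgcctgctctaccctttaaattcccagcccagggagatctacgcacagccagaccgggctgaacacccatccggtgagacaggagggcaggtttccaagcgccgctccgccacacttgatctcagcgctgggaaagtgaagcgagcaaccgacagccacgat

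The Elovl5 window held an E-box 212 bases before the start and a pair of CCAAT boxes on the opposite strand, 122 and 68 bases before it. E-boxes bind factors such as USF and SREBP, and CCAAT boxes bind NF-Y. The Acly window held a CCAAT box 71 bases before the start and 3 GC boxes, which Sp1 binds, at 220, 135 and 35 bases. The Scd window held 1 match to the antioxidant response element core, the sequence bound by Nrf2, on the opposite strand 127 bases before the start. Among 33469 rat promoter windows of 300 bases, 6.42% held the E-box, 37.5% the CCAAT box, 33.1% the GC box, 1.12% the sterol regulatory element core and 12.1% the antioxidant response element core. The letters of the sterol regulatory element core were in none of these 3 windows. None of these motifs overlapped another in the printed windows, and a match is a run of letters, not a measured site.

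Elovl5 was the member with the clearest separation between groups. Its scaled signal was 7739, 8096, 8063 and 8246 in vehicle replicates 1 to 4, and 4418, 6047, 4393 and 3910.2 in D3T replicates 1 to 4. All 4 D3T arrays lay below all 4 vehicle arrays, and D3T replicate 2 was the nearest to the vehicle arrays. Elovl5 was the 1 member of 10 whose groups did not overlap, while 19.2% of all tested probe sets had separate groups, 11.3% with D3T below and 7.89% with D3T above. The group means were 8036 ± 214 (SD, n = 4) and 4692 ± 933, so that the spread after D3T was wider. The log2 fold change was -0.80 ± 0.13 (SE), with an adjusted p of 0.00610 from limma. It passed in 8 of 8 fits without 1 array, with log2 fold changes from -0.92 to -0.71.

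The D3T arrays also had lower ratios of the 3' to the 5' probe set of actin, a measure of how intact the RNA and its labelling are. The ratio was 1.45 to 1.59 in vehicle and 1.17 to 1.47 after D3T, so the groups overlapped slightly (exact two-sided permutation p = 0.0571 over 70 assignments, where the smallest possible is 0.0286). With the log2 of this ratio as a covariate Elovl5 kept its direction and no longer passed (log2 fold change -0.67 ± 0.21, adjusted p = 0.199), and 35 of 5244 probe sets passed in that fit against 560 without it. Because the ratio went largely with the groups, that fit had wider errors (SE of Elovl5 0.21, against 0.13 without the covariate). A call lost in it therefore cannot tell the ratio apart from D3T. The part of the ratio in the results was not tested beyond this covariate. In whole liver RNA, fewer cells of a type and less RNA per cell cannot be told apart.

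Acly, ATP citrate lyase, makes the cytosolic acetyl-CoA from which fatty acids and sterols are built. Its brightest probe set (J05210_g_at) read 4538, 9078, 8409 and 3994 in vehicle replicates 1 to 4 and 8496, 4013, 2021 and 3369 in D3T replicates 1 to 4. A second one on the same transcript (J05210_at) read 1471, 3098, 3877 and 1831 in vehicle and 2303, 1377, 646 and 839 after D3T. On both, D3T replicates 3 and 4 were below every vehicle array and D3T replicate 1 lay inside the vehicle range. D3T replicate 2 was just above the lowest vehicle array on the first and just below it on the second, and vehicle replicates 2 and 3 stood above vehicle replicates 1 and 4. The log2 fold changes were -0.64 ± 0.40 (SE) and -1.06 ± 0.40, and neither passed in limma (adjusted p = 0.307 and 0.111). Their 95% intervals ran from -1.53 to 0.24 and from -1.94 to -0.18. The remaining, dim probe set (L27075_g_at) had 74.9 to 230.5 in vehicle and 33.6 to 355 in the D3T arrays. Its log2 fold change, 0.12 ± 0.65, changed sign when vehicle replicate 1 (-0.14), D3T replicate 1 (-0.32) or D3T replicate 4 (-0.17) was left out.

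Acaca encodes acetyl-CoA carboxylase alpha, whose product malonyl-CoA is the committed intermediate of fatty acid synthesis. Its signal was 116, 271, 253 and 106 in vehicle replicates 1 to 4, and 275, 372, 253 and 280.5 in D3T replicates 1 to 4. The groups overlapped, since D3T replicate 3 lay just below vehicle replicate 3 and vehicle replicate 2 was above both. The means were 186 ± 87.6 (SD, n = 4) and 295 ± 52.7. The log2 fold change of 0.78 ± 0.32 (SE) did not pass (limma adjusted p = 0.138, 95% interval 0.07 to 1.49). With the actin ratio as a covariate the estimate was 0.35.

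Fasn encodes fatty acid synthase, the multienzyme that assembles palmitate. The brighter of its probe sets (M76767_s_at) read 1827, 2352, 2930.2 and 1052 in vehicle replicates 1 to 4, and 4145, 2388, 2136 and 1815 in D3T replicates 1 to 4. The other (X13527cds_s_at) read 533, 1279, 1505 and 554 in vehicle, and 2555, 1134, 1176 and 1178 after D3T. The groups overlapped on both, D3T replicate 1 was the highest array on both, and the other 3 D3T arrays lay within the vehicle range. The log2 fold changes were 0.38 ± 0.32 (SE) and 0.70 ± 0.38 and did not pass (limma adjusted p = 0.446 and 0.240). Intervals of -0.32 to 1.09 and -0.13 to 1.54 leave room for no change and for a rise of more than 2-fold. The estimate of M76767_s_at was 0.14 without D3T replicate 1 and 0.097 without vehicle replicate 4. That of X13527cds_s_at was 0.42 without D3T replicate 1, 0.47 without vehicle replicate 1 and 0.49 without vehicle replicate 4.

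**Figure D2:**
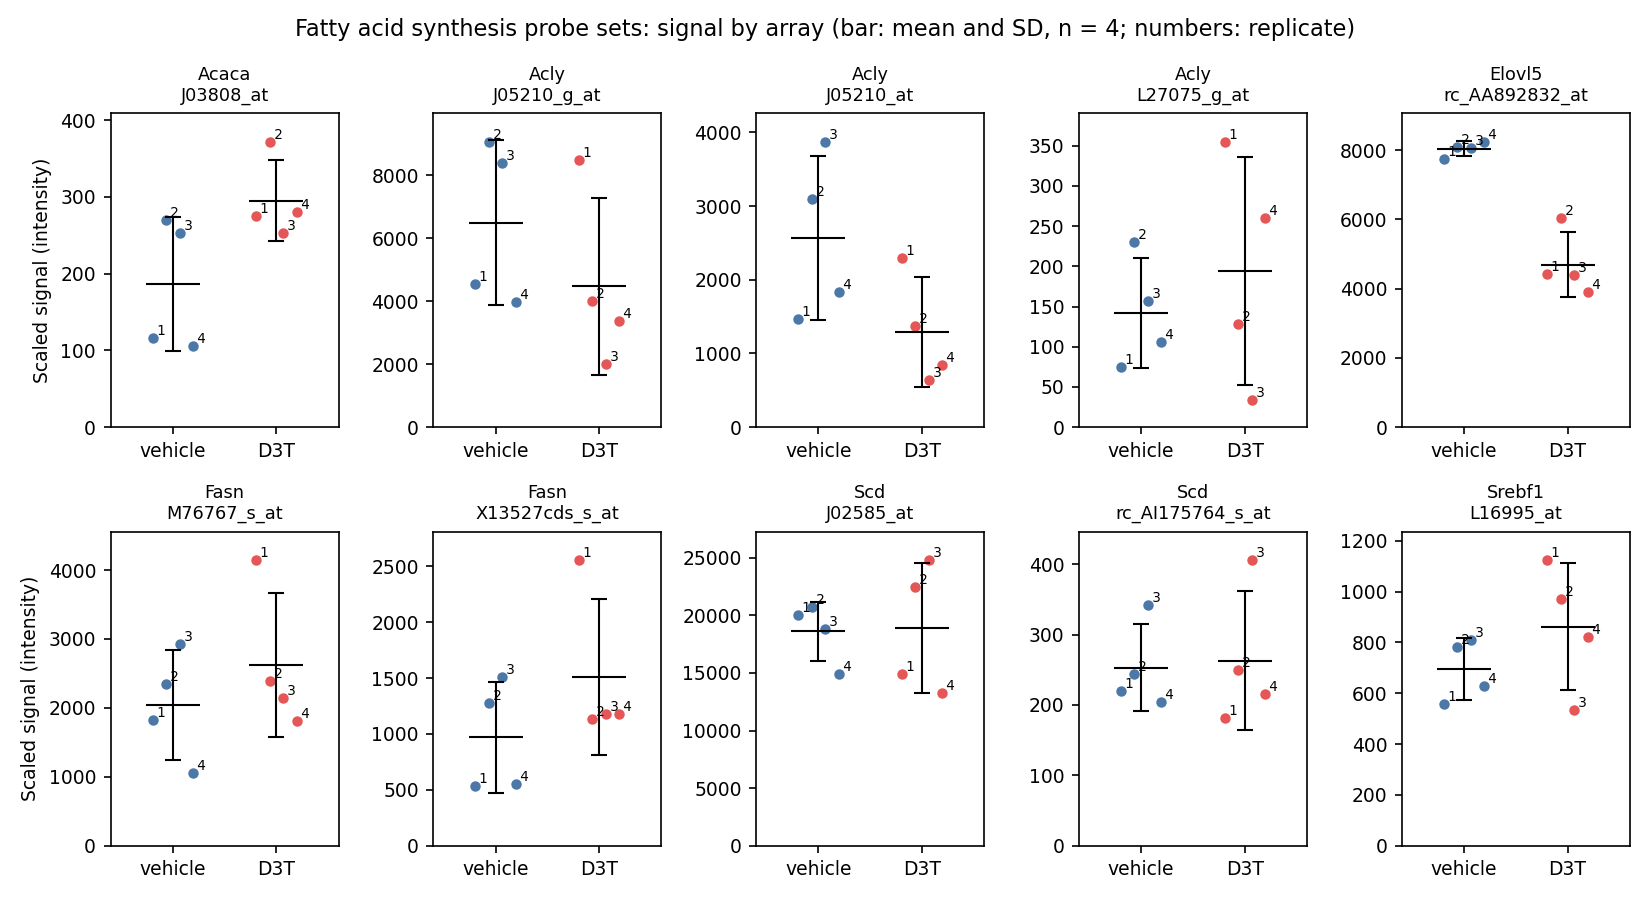
Scaled signal (intensity, linear axis from 0) of the 10 probe sets in each vehicle and D3T array, with the replicate number beside each point and bars for mean and SD over 4 arrays. Elovl5 is the panel with separate groups, vehicle near 8036 and D3T near 4692, and vehicle replicates 2 and 3 are the upper pair in 8 of the 10 panels.

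Scd encodes stearoyl-CoA desaturase, which turns stearate and palmitate into monounsaturated fatty acids. Its bright probe set (J02585_at) read 20007, 20699, 18861 and 14948 in vehicle replicates 1 to 4, and 14937, 22503, 24806 and 13271 in D3T replicates 1 to 4. The D3T arrays spanned the whole vehicle range, with replicates 2 and 3 above it and replicates 1 and 4 below it. The log2 fold change was -0.02 ± 0.20 (SE), with a 95% interval from -0.46 to 0.42 and a limma adjusted p of 0.954. The dim one (rc_AI175764_s_at) had 205 to 342 in vehicle and 181 to 406 in the D3T arrays, and a log2 fold change of 0.02 ± 0.27 with an interval from -0.57 to 0.61. The sign of either estimate changed under several settings, among them quantile normalization for the dim probe set.

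A further probe set, not a member because it is matched to Scd together with Scd2, Scd3 and Scd4, was chosen after its values were seen. It read 618, 738, 686 and 508 in vehicle replicates 1 to 4, and 898, 1195, 1170 and 1073 in D3T replicates 1 to 4. Every D3T array was above every vehicle array, and the log2 fold change was 0.77 ± 0.16 (SE, limma adjusted p = 0.0135), or 1.71-fold with an interval of 1.35 to 2.16. With the actin covariate the log2 fold change was 0.75 and did not pass (adjusted p = 0.226). The signal cannot be assigned to 1 of the 4 genes. Of the 6 probe sets matched to Scd2 alone, 1 was bright enough to be tested, with 235 ± 85.5 (SD, n = 4) in vehicle and 301 ± 80.2 after D3T (limma adjusted p = 0.367).

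Srebf1 encodes SREBP-1, the transcription factor that induces Acly, Acaca, Fasn, Scd and Elovl5 in liver. Its signal was 555, 782, 810.1 and 627 in vehicle replicates 1 to 4, and 1124, 969, 534 and 820 in D3T replicates 1 to 4. D3T replicate 3 was below all vehicle arrays and the other 3 D3T arrays were above them. The log2 fold change was 0.28 ± 0.23 (SE), with a 95% interval from -0.22 to 0.78 and a limma adjusted p of 0.433. With the actin covariate it was -0.15.

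The members varied more between rats of a group than most probe sets did. Their median SD within groups was 0.56 on the log2 scale, against 0.31 over all tested probe sets, while that of Elovl5 was 0.19. Vehicle replicates 2 and 3 were the highest pair of vehicle arrays for 8 of the 10 member probe sets, all but Elovl5 and the bright Scd one, compared with 13.7% of all tested probe sets. D3T replicate 1 was the highest D3T array for 6 of the 10 members, against 23.4% of all tested. D3T replicate 3 was the lowest for 5 of the 10, against 25.7%. Probe sets of 1 gene share their transcript, so these counts do not rest on 10 independent measurements. The orders counted here were also chosen after the members' values were seen. The counts are therefore a description, and the shares over all tested probe sets are no test of them.

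Neither Fasn nor Acly passed the test. The ratio of their signals within an array was chosen after the values were seen, and so it is given as a description, with no test. Set against the vehicle geometric mean, the ratio of the brightest probe sets was 1.29, 0.828, 1.11 and 0.842 in vehicle replicates 1 to 4, and 1.56, 1.90, 3.38 and 1.72 in D3T replicates 1 to 4. Every D3T array was above every vehicle array, with a D3T geometric mean of 2.04. The same separation held for 4 of the 6 pairings of a Fasn with an Acly probe set, with D3T geometric means of 2.04 to 3.40. Those 4 include the pairing above and share the same arrays and transcripts, so they are not independent of each other. The remaining pairings used the dim Acly probe set L27075_g_at, and their groups overlapped. How often other pairs of probe sets separate in this way was not examined.

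**Figure D3:**
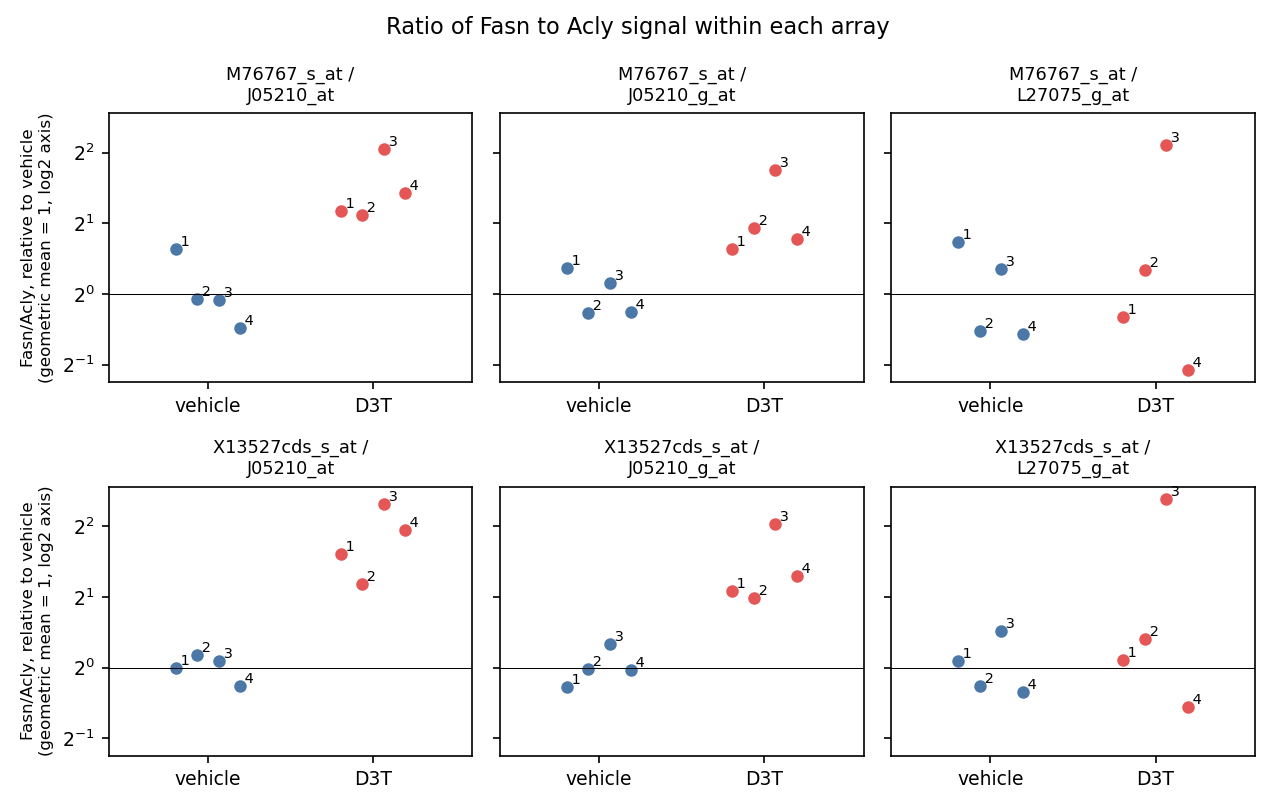
Ratio of Fasn to Acly signal in each array for the 6 pairings of their probe sets, on a log2 axis with the vehicle geometric mean set to 1 and the replicate number beside each point. D3T arrays lie above all vehicle arrays in the 4 pairings that use J05210_at or J05210_g_at, and overlap with them in the pairings that use L27075_g_at.

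Genes around the pathway were read from lists, with each gene represented by its brightest tested probe set. Over all 3150 genes tested in this way 9.56% passed, 3.71% as higher and 5.84% as lower. Of 14 tested partners of fatty acid synthesis (15 of 32 listed had a probe set), 1 was lower and 0 higher, and the list's median was -0.19 (log2). That gene was Acsl5, an acyl-CoA synthetase, whose mean went from 4227 ± 357 in the vehicle group to 2815 ± 540.5 (SD, n = 4) in the D3T group (1.52-fold lower, limma adjusted p = 0.0280). Its other probe set was 1.72-fold lower (adjusted p = 0.0348). The call of Acsl5 was lost in 4 of 8 fits without 1 array, namely without vehicle replicate 1, 3 or 4 or D3T replicate 3 (adjusted p from 0.0591 to 0.0752). It was also lost with no filter (0.0748), with no intensity trend (0.0697) and with the actin covariate (log2 fold change -0.60 without and -0.74 with it, limma adjusted p = 0.196).

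Of 24 tested regulators 3 were higher and 1 lower, with a median of -0.12. Insig1, which holds SREBP precursors in the endoplasmic reticulum, was 4.51-fold lower (adjusted p = 0.00161), with all D3T arrays below all vehicle arrays on both of its probe sets. Rxra and Rxrb, retinoid X receptors that pair with the liver X receptors, were 5.55-fold and 1.55-fold higher (adjusted p = 0.00725 and 0.0343). Hnf4a, a hepatocyte nuclear receptor, was 1.41-fold higher (adjusted p = 0.0477). When 1 array at a time was left out, Rxrb passed in 1 of 8 fits, without vehicle replicate 2, and Hnf4a in 0, with the highest limma adjusted p at 0.0863 and 0.116. Rxra lost its call with no filter (0.0528). Its log2 fold change of 2.47 became 2.29 with the floor at the 40th percentile. It was 2.01 without vehicle replicate 3 and 2.85 without vehicle replicate 4. None of these 4 passed with the actin covariate, where the log2 fold change of Insig1 went from -2.17 to -2.22, that of Rxra from 2.47 to 2.73, that of Rxrb from 0.63 to 0.78 and that of Hnf4a from 0.50 to 0.31. Hnf4a also lost its call with median centring, no filter or no intensity trend (limma adjusted p from 0.0605 to 0.0862).

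All 13 tested sterol synthesis genes had negative log2 fold changes, as did 1517 of all 3150 genes tested. Their median was -0.53, and 5 of the 13 sterol synthesis genes passed as lower, against 5.84% of all genes. The list was chosen with earlier results of these data known, so these counts are a description and not a test. SREBP factors are known to induce both this pathway and fatty acid synthesis. Sqle, Msmo1, Nsdhl and Cyp51, which act from squalene onwards, were 5.03-fold, 2.61-fold, 2.01-fold and 1.87-fold lower (limma adjusted p = 0.0271, 0.00210, 0.00382 and 0.00513). The fold of Sqle depends on the floor, where 1 D3T array lay, and its log2 fold change of -2.33 became -1.58 with the floor at the 40th percentile. Its call was lost with no filter (adjusted p = 0.105) or no intensity trend (0.0505), and it was lost when vehicle replicate 1, 3 or 4 or D3T replicate 1 was left out (highest adjusted p 0.0815). The remaining one, Ebp, named beyond the rule for naming genes after its values were seen, was 1.44-fold lower (limma adjusted p = 0.0493). That value is just under the threshold, and the call of Ebp was not followed through the other settings. With the actin covariate Sqle, Msmo1, Nsdhl and Cyp51 had log2 fold changes of -2.85, -1.20, -0.87 and -0.90 and did not pass (limma adjusted p = 0.196, 0.130, 0.167 and 0.135). Whether the sterol list and the members differed was not tested. Of 8 tested genes that follow feeding and time of day 0 passed with limma, with a median of -0.22. The brightest, Pck1 of gluconeogenesis, had 10996 ± 811 (SD, n = 4) in vehicle and 9862 ± 1272 after D3T.

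**Figure D4:**
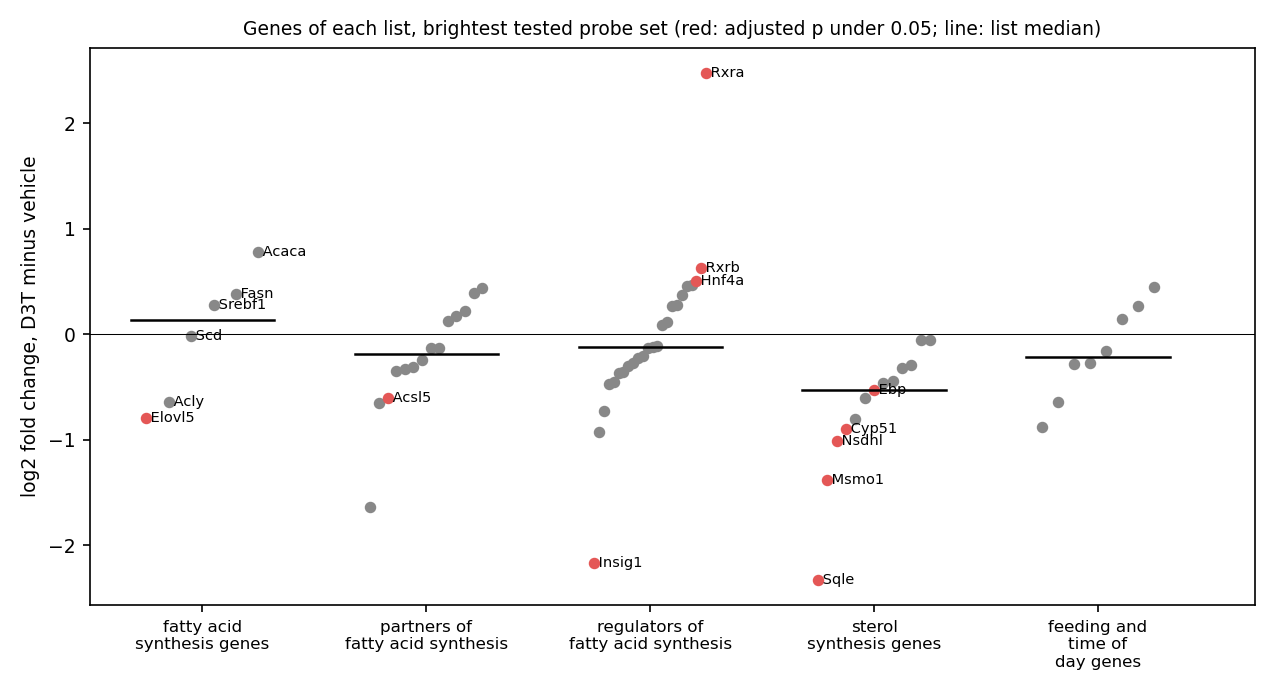
Log2 fold change (D3T minus vehicle) of each gene's brightest tested probe set in 5 lists, with the list median as a line and genes of adjusted p under 0.05 in red. The members spread from -0.80 for Elovl5 to 0.78 for Acaca. All 13 sterol synthesis genes lie below 0.

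Markers of hepatocytes were bright, and 1 of 11 tested was lower (Fgb, 1.74-fold, limma adjusted p = 0.0126). Of the 11 estimates 6 were above 0 and 5 below. Their summed signal was 201043 to 290581 in vehicle and 238796 to 322657 after D3T. Fgb lost its call without the filter (0.0587) and when the actin ratio was added, where its log2 fold change went from -0.80 to -0.43 (limma adjusted p = 0.379). Of 10 adipocyte markers 4 were tested and 0 passed. Their summed signal was 1904 to 3172 in vehicle and 2831 to 4389 after D3T, mostly from a Lep probe set at 1995 ± 560.4 and 2942 ± 785 (SD, n = 4), while the defining markers Fabp4 and Plin1 lay below the floor on 8 and 7 of 8 arrays. Of 5 tested macrophage markers Cyba (3.68-fold) and C1qb (1.73-fold) were lower and Cd14 was higher (1.74-fold), with a summed signal of 4617 to 4896 in vehicle and 3139 to 4008 after D3T. With the actin covariate Cyba still passed (adjusted p = 0.0145), while C1qb and Cd14 did not (0.210 and 0.259; log2 fold changes -0.72 and 0.65). Col3a1 among 5 stellate and fibroblast markers (1.86-fold) and Amy2a3 among 3 exocrine pancreas markers (1.56-fold) were also lower, with each passing in 2 of 8 fits without 1 array and neither with quantile normalization, no filter, no intensity trend or the actin covariate. Of the 5 stellate and fibroblast estimates 2 were above 0 and 3 below, with a summed signal of 6017 to 9531 in vehicle and 7166 to 9628 after D3T. Of the 3 pancreas estimates 1 was above 0 and 2 below. The summed pancreas markers read 1871 to 2708 in vehicle and 1379 to 1855 after D3T. No endothelial, bile duct or blood marker passed among 3, 3 and 4 tested, the brightest being Kdr, Epcam and Hbb (limma adjusted p = 0.557, 0.696 and 0.0600). Hbb did pass as lower with quantile normalization (0.0179) and among the brightest 30% (0.0391). The summed blood markers were lower without overlap after D3T, at 10999.6 to 15503 in vehicle and 7464 to 10375 in the D3T arrays. That sum gives most weight to the brightest marker, Hbb. Taken singly, 2 of the 4 blood markers had estimates above 0 and 2 below, and the list's median was -0.01 (log2). The part of these cell types in the results was not tested.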

How the data were processed

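The authors deposited a linear signal intensity for every probe set on each array, computed with MAS5 per the submitters' processing notes. Its version, target and detection calls are not stated in what was used here. Groups and replicate numbers came from the sample titles. Arrays were brought to a 2% trimmed mean of 500 (500.8 to 501.02 as deposited), signals under the 20th percentile (20.4) were set to it, and values were log2 transformed. Leaving out 59 control probe sets, limma 3.58.1 (R 4.3.3; lmFit, then eBayes with trend) was run on the brightest 60% of the other 8740, 5244 in all, with Benjamini-Hochberg adjustment over these at 0.05. Folds compare geometric means, and intervals are 95%. Precision is limited by the number of arrays, since intensities carry no counts, and p-values measure the spread between rats.

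Names came from the platform annotation (7006 probe sets with 1 symbol, 308 with several, 1426 with none), and all 6 member genes were found in RefSeq's GRCr8 gene table. For 5 of the 10 member probe sets a suffix (_s_at or _g_at) marks sequence shared with other transcripts, so their signal may not come from the named gene alone. All members were named and, per list, the genes past the threshold, at most 4 by size, or the brightest where none passed. Members and lists were chosen with earlier results of these data known. The fit was tested on simulated data. Other settings were the deposited scale, quantile normalization, centring on medians, adding 16 before log2 in place of the floor, the 40th percentile as floor, all probe sets or the brightest 30%, eBayes without trend or robust, weighted arrays, a block for the replicate number, the actin ratio as covariate, and each array left out.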

Additional observations from a re-analysis of the deposited data

Results flagged for a closer look

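In 1 of the 20 sets of 4 arrays examined (10 member probe sets in each group), 1 array stood apart from the rest. On the Fasn probe set X13527cds_s_at, D3T replicate 1 read 2555 while the other 3 D3T arrays read 1134 to 1178, a gap of 0.953 of the group's range, past Dixon's critical value for 4 samples. Chance flags about 1 in 20 such sets. The same rat had the highest D3T signal on the other Fasn probe set, on all 3 of Acly and on Srebf1.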

How the results depend on the processing

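Elovl5 passed in 19 of 20 alternatives (log2 fold change -0.92 to -0.67), the exception being the fit with the actin ratio added, in which 0 of the 10 member probe sets passed (0 in limma, where 1 passes without it). The count over all probe sets was 560 and moved to 309 with no filter, 333 with no intensity trend and 290 with the replicate block. With the actin covariate it was 35 (24 higher and 11 lower), and with array weights it was 824. Without 1 array it ran from 240 (without vehicle replicate 3) to 695 (without vehicle replicate 2). It also fell by more than 1.5 times without vehicle replicate 1 (260), vehicle replicate 4 (301), D3T replicate 1 (279) or D3T replicate 4 (307). With the replicate block Elovl5 still passed, while Rxrb (adjusted p = 0.0898), Hnf4a (0.101), Col3a1 and Amy2a3 did not. Same-numbered arrays of the groups did not deviate together (correlations from -0.20 to 0.06 over probe sets). Such correlations cannot show whether same-numbered rats were handled together. Of 197 results of member probe sets under an alternative, 181 kept their direction and their side of the threshold, 1 lost its call and 15 changed sign without passing. The sign changes were, with the actin covariate, 0.44 for the bright Scd probe set, -0.15 for Srebf1 and -1.70 for the Acly probe set L27075_g_at, and for the dim Scd one -0.0027 with quantile normalization and -0.084 with array weights. Without 1 array the bright Scd estimate ran from -0.17 to 0.13, the dim one from -0.21 to 0.18 and that of L27075_g_at from -0.32 to 0.81. With the actin covariate Pck1 turned to 0.038, Kdr to 0.50 and Epcam to -0.21, and without 1 array Epcam ran from -0.0014 to 0.29. The difference of the log2 actin ratio was -0.22 and ran from -0.27 (without D3T replicate 3, exact permutation p = 0.0286) to -0.16. The cause of these changes was not tested. The 4 arrays a group limit the precision, as the printed intervals give it.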
